A study of Parasteatoda tepidariorum with 75 samples.

Results

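The libraries described here followed spider embryos from early stage 3, when the blastoderm is only beginning to look asymmetric, to late stage 5, when a germ disc is present, after the hedgehog gene Pt-hh had been knocked down. They are the 8 Pt-hh pRNAi libraries of these stages among the 75 samples of the series, and were chosen by their treatment and stage labels alone. Parasteatoda tepidariorum females of the Osaka isolate received 4 injections of Pt-hh double-stranded RNA, and whole embryos of their later egg sacs were collected (parental RNA interference, pRNAi). Female 1 gave egg sacs on days 16 and 20 after the first injection and female 2 on days 18 and 22, and each of these 4 sacs gave 1 stage 3 and 1 stage 5 library. Values for the 4 sacs are given throughout in that order. The same 2 females had each laid an untreated sac 2 days before injection, which gave 4 more libraries of both stages. The untreated stage change in other animals came from 6 sacs laid by the Pt-ptc and gfp females before they were injected (12 libraries). Injected references were 6 sacs of 3 females under gfp pRNAi and 6 sacs of 3 others under Pt-ptc pRNAi (12 libraries each). No gfp pRNAi sac came from a Pt-hh female, so a difference from gfp pRNAi cannot be told apart from one between females. Each library was a pool of 50 to 120 sibling embryos from 1 sac, so 4 sacs stand for 2 females, and p-values over sacs measure the spread between sacs more than between animals. Because the RNA came from whole embryos, fewer cells expressing a gene cannot be told apart from less RNA per cell.

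Hedgehog is a secreted ligand that binds the membrane receptor Patched. Without ligand, Patched holds back Smoothened, and the transcription factor Cubitus interruptus (the fly Gli protein) acts mainly as a repressor. With ligand, Smoothened is released and target genes, patched among them in many animals, are switched on. In this spider the ligand gene is expressed at the rim of the forming germ disc, the future anterior side, and the centre of the disc becomes the posterior of the embryo. The question of the comparison was which parts of the change from blastoderm to germ disc still took place without Pt-hh.

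The knockdown was present at both stages. Pt-hh (aug3.g4322; scaffold 547, 237576 to 301138, plus strand of Ptep_1.0) stood at 5.54, 6.32, 3.64 and 1.4 CPM (read counts scaled to a common library total) at stage 3 and at 2.35, 3.26, 3.39 and 3.26 CPM at stage 5 after Pt-hh pRNAi. The untreated sacs of the same females had 22.4 and 11.2 CPM at stage 3 and 72.3 and 34.4 CPM at stage 5. All 8 knockdown libraries lay below all 4 untreated ones, and the stage groups of the knockdown overlapped. The fitted stage change was -0.28 ± 0.40 on the log2 scale (SE, edgeR quasi-likelihood test, Benjamini-Hochberg adjusted p = 0.547), against 1.34 in the untreated sacs of the other females. Total counts ran from 6188457 to 9738213 over the 8 libraries. Both Pt-hh females, before and after injection, had 4 models with no annotation that took 9.16 to 19.8% of all counts in each of their 12 libraries, against 0.0961 to 1.5% in the other 36 libraries used here. Leaving those 4 models out, an alternative chosen after seeing the data, kept the shares of programme genes that went on within 1.5 times.

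Most of the stage programme went on after Pt-hh knockdown. Of 13770 gene models tested, 3982 (28.9%) were higher and 4142 (30.1%) lower at stage 5 than at stage 3 in the Pt-hh pRNAi sacs (edgeR quasi-likelihood test with egg sac as block, adjusted p under 0.01). In the 6 untreated sacs of the other females, 4363 (30.2%) of 14452 models were higher and 4628 (32% of them) lower. A programme gene was then defined from those untreated sacs as a model called with a log2 change of at least 1, which gave 3219 risers and 3382 fallers among the 13299 models tested in all 3 fits. After Pt-hh knockdown 2724 of the risers (84.6%) rose and 2885 of the fallers (85.3%) fell, beside 29.4% and 30.7% of all 13299 models called in those directions. Another 490 risers and 484 fallers did not pass the test, and 5 risers fell and 13 fallers rose. The same programme genes were called the same way in 94.3% and 96% of cases in the gfp pRNAi sacs, which number 6 rather than 4. The females of those sacs also laid part of the untreated sacs that defined the programme, and the Pt-hh females laid none of them. In gfp pRNAi 32.9% of all models tested were called higher and 36.7% lower. In the 2 untreated sacs of the Pt-hh females the shares were 65.9% and 68.7%, where 18% and 20.8% of all models were called.

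The size of the change is given next for the same genes. The median riser rose by 1.62 on the log2 scale in Pt-hh pRNAi, 1.71 in the untreated Pt-hh females, 1.74 in gfp pRNAi and 1.87 in the untreated sacs that defined the programme. The median faller changed by -2.20, -2.32, -2.43 and -2.41 in the same order. Since the programme was defined in the last of these groups, its medians there are raised by the choice. The gfp pRNAi sacs share females with that group, and the sacs of the Pt-hh females do not. Taken sac by sac on log2(CPM + 0.5), the median riser gained 1.58, 1.35, 1.5 and 1.46 in the 4 Pt-hh pRNAi sacs and 1.52 and 1.7 in their untreated sacs, so these groups overlapped. It gained 1.59 to 1.74 in the 6 gfp pRNAi sacs, next to and not overlapping the 1.35 to 1.58 of the Pt-hh pRNAi sacs. The median faller changed by -1.87 to -1.73 in the Pt-hh pRNAi sacs and by -1.96 to -1.78 in the gfp pRNAi sacs, which overlapped. Across the 13299 models the stage changes in Pt-hh pRNAi and in the untreated other females had a Pearson correlation of 0.92 and a Spearman correlation of 0.91, given as a description because genes are not independent replicates. The 2 sets share no library.

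**Figure D1:**
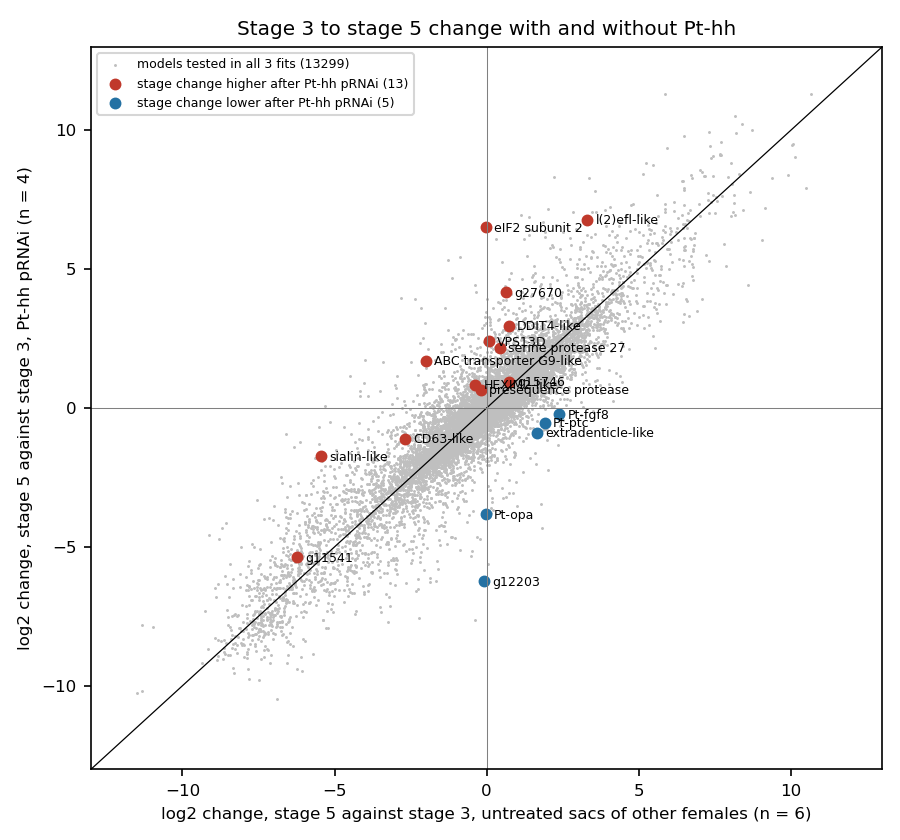
Log2 change from stage 3 to stage 5 of 13299 gene models in untreated sacs of other females (x axis, 6 sacs) and in Pt-hh pRNAi sacs (y axis, 4 sacs), with the line of equality. Most models lie along the line; the 13 models in red had a higher and the 5 in blue a lower stage change after Pt-hh knockdown than in the untreated sacs of the same females.

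The models that rose most in Pt-hh pRNAi were nearly silent at stage 3. An alpha-tocopherol transfer protein-like model (aug3.g11867), of a family that carries hydrophobic molecules, had 0, 0, 1 and 0 counts at stage 3 and 798, 754, 777 and 724 at stage 5. For a sericin 1-like model (aug3.g16493) there were no counts at stage 3 and 278, 275, 271 and 251 at stage 5, at least 108-fold higher when 3 counts per library are taken as the floor. A keratin-like model (aug3.g23220) likewise went from no counts to 107, 115, 298 and 168, at least 66.6-fold higher. These values leave no overlap between the stages. The model for the Notch-regulated ankyrin repeat protein (aug3.g15506), a feedback inhibitor of Notch in vertebrates, had 3, 3, 1 and 0 counts at stage 3 and 1036, 720, 1510 and 1635 at stage 5. The other 4 of the 8 largest rises were a sialin-like transporter (aug3.g27427), a serine-rich adhesin-like model (aug3.g2441), a glyoxylate reductase (aug3.g26944) and a UreG-like model (aug3.g7317), each with at most 4 counts in any stage 3 library. All 8 were also risers of the untreated programme.

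Of the 8 models with the largest fall, 5 were ABHD11-like hydrolase models. The most abundant of them, aug3.g9729, stood at 1662, 1485.1, 1900.1 and 1506 CPM at stage 3 and at 3.38, 5.94, 3.11 and 1.45 CPM at stage 5 (log2 change -8.93 ± 0.29 SE, edgeR adjusted p = 8.49e-10). Its untreated sibling sacs went from 2607 and 2491 CPM to 3.37 and 5.56 CPM, and the other 4 (aug3.g23929, aug3.g3607, aug3.g9728 and aug3.g9725) changed by -9.06, -8.83, -8.79 and -8.69 on the log2 scale. The 5 are near copies by name, and reads that match several of them equally were filtered by the authors before counting, so their levels are uncertain. A cyclin-dependent kinase 5 activator 1-like model (aug3.g27482) fell from 179, 170, 173 and 225 counts to none, at least 51.6-fold lower. A gastrula zinc finger-like model (aug3.g11496) fell from 1003, 1666, 578 and 748 counts to 0, 1, 1 and 0, and an octopamine receptor beta-3R-like model (aug3.g8066) from 140, 147, 196 and 257 to 0, 0, 1 and 0. Stage groups were separate for all 8, and all 8 belonged to the untreated programme.

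Genes of the Hedgehog pathway moved in both directions. Of its 12 models, 2 of which the study assigns to 1 shifted-like gene, 4 of the 11 models tested rose, 4 fell and 3 passed in neither direction, beside 28.9% and 30.1% of all models, with a median log2 change of -0.23 against 0.69 in the untreated sacs of the other females. The receptor gene Pt-ptc (aug3.g14374; scaffold 1861, 26148 to 92754, minus strand) went from 107, 151, 134 and 136 CPM to 71.4, 77.6, 103 and 103 CPM, so every stage 5 library was below every stage 3 library. That was a log2 change of -0.55 ± 0.14 (SE, edgeR adjusted p = 0.00395), a call lost without the sac of day 16 or of day 20, where the highest edgeR adjusted p was 0.0214. In the untreated sacs of the same females Pt-ptc went from 198 and 119 to 503 and 496 CPM, and its stage change in the other untreated females was 1.90. The difference between the Pt-hh pRNAi and untreated stage changes within the Pt-hh females, the stage-by-treatment term, was -2.24 ± 0.26 (SE, edgeR adjusted p = 0.00498). That call was lost when any of the sacs of days 16, 18 or 22 or the untreated sac of female 2 was left out, with terms of -2.62 to -1.92. Against gfp pRNAi sacs, which are of other females and where Pt-ptc changed by 1.93, the term was -2.55 (edgeR adjusted p = 1.85e-07). A second patched-like model (aug3.g24717) also belonged to the risers and had 5, 14, 5 and 8 counts at stage 3 and 3, 5, 11 and 7 at stage 5 (edgeR adjusted p = 0.958).

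Genes that pass the signal on followed other courses. Pt-smo, which encodes Smoothened, fell from 265, 273, 273 and 238 to 149, 139, 155 and 146 CPM (log2 change -0.80 ± 0.11 SE, edgeR adjusted p = 8.15e-05), and changed by -0.80 in the untreated sacs of the other females. By sac on log2(CPM + 0.5) it changed by -0.83, -0.98, -0.82 and -0.70, and by -0.44 and -0.16 in the untreated sacs of the same females. Its stage-by-treatment term was not called. Suppressor of fused (aug3.g4889), an inhibitor of the Ci and Gli proteins, fell by 1.17 on the log2 scale (edgeR adjusted p = 1.15e-05) against a change of -1.11 in the untreated other females. Pt-ci, the transcription factor of the pathway, rose instead, from 606, 627, 527 and 630.0 CPM to 1434, 1374, 1459 and 1266 CPM (log2 change 1.25 ± 0.12 SE, edgeR adjusted p = 3.90e-06). Its untreated sibling sacs had 623 and 591 CPM at stage 3 and 688 and 561 CPM at stage 5. The stage-by-treatment term of Pt-ci, 1.22 ± 0.21 (SE, edgeR adjusted p = 0.0265), did not pass the threshold of 0.01, whereas the term against gfp pRNAi, 0.92, did (edgeR adjusted p = 0.00393). Pt-gas1, whose vertebrate relative binds Hedgehog as a co-receptor, went from 2.63, 1.26, 2.06 and 0.969 CPM to 90.3, 101, 177 and 135 CPM (log2 change 6.22 ± 0.28 SE, edgeR adjusted p = 7.87e-09). The untreated sacs reached 68.1 and 95.9 CPM, and the stage-by-treatment term, 1.71 ± 0.49 (SE, edgeR adjusted p = 0.23), did not pass. Dispatched (aug3.g10365), which in flies releases Hedgehog from the cells that make it, was a programme faller (-2.18 in the other females) and moved from 31, 27.8, 30.1 and 27.6 to 18.4, 27.6, 23.5 and 27.9 CPM in Pt-hh pRNAi (edgeR adjusted p = 0.243). In the untreated Pt-hh females it changed by -0.50.

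In flies the secreted protein Shifted lets Hedgehog travel through tissue, and 2 shifted-like models of the central list below are parts of 1 gene by the study's transcript analysis. The larger part, aug3.g27568, rose from 3.32, 7.68, 3.49 and 5.92 CPM to 73.7, 58.2, 58.4 and 52.5 CPM after knockdown (log2 change 3.61 ± 0.25 SE, edgeR adjusted p = 2.61e-07). Its untreated sibling sacs went from 10 and 5.13 to 17.2 and 10.3 CPM. The term for the difference was 2.74 ± 0.44 (SE, edgeR adjusted p = 0.0177), just outside the threshold. The other part, aug3.g24611, which is no separate evidence, went from 0.554, 0.583, 0.475 and 0.754 to 10.7, 8.43, 5.23 and 4.23 CPM (edgeR adjusted p = 9.25e-06), beside 2.87 and 1.22 CPM in the untreated stage 5 libraries, with a term of 2.79 ± 0.71 (SE, edgeR adjusted p = 0.157).

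The 4 genes of the anterior rim fell or did not pass the test. They were listed from the study, which names Pt-otd, Pt-lab-A and Pt-opa as targets known from earlier work and also calls them in these libraries. The direction of a gene listed only from these libraries is not independent evidence. In Pt-hh pRNAi 0 of the 4 rose and 2 fell, and their median log2 change was -1.31 against 0.44 in the untreated other females. By the stage-by-treatment term 1 of the 4, Pt-opa, was called lower within the Pt-hh females, where 0.0354% of all models were, and 3 of 4 with gfp pRNAi as the reference, where 2.32% were. The gfp pRNAi reference compares different females. Pt-opa (aug3.g12202; scaffold 1447, 114106 to 154022, plus strand), a ZIC-type zinc finger gene that acts in head segmentation, fell from 132, 289, 199.7 and 199 CPM to 14.4, 18.4, 10.8 and 11.7 CPM. Every stage 5 library lay far below every stage 3 library. This was a log2 change of -3.83 ± 0.19 (SE, edgeR adjusted p = 1.47e-08). The untreated sibling sacs had 307 and 184 CPM at stage 3 and 238 and 257 CPM at stage 5, and gfp pRNAi embryos changed by -0.02. The stage-by-treatment term was -3.88 ± 0.33 (SE, edgeR adjusted p = 6.24e-04), and Pt-opa alone of the 18 models with a called term kept its call with each of the 6 sacs left out in turn (-4.33 to -3.49). At stage 3, before the fall, the Pt-hh pRNAi and untreated libraries overlapped. A model with no annotation on the other strand just beyond Pt-opa (aug3.g12203; scaffold 1447, 154028 to 157014, minus strand) went with it: 10, 84, 24 and 36 counts at stage 3, 0, 1, 0 and 0 at stage 5, and 40 and 51 in the untreated stage 5 libraries (stage-by-treatment edgeR adjusted p = 0.00825).

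Pt-fgf8 and Pt-otd stayed low through both stages. Pt-fgf8 (aug3.g5611; scaffold 671, 239636 to 329201, plus strand), a fibroblast growth factor gene that the study places near the cumulus and not at the rim, had 7.75, 7.09, 12.7 and 15.7 CPM at stage 3 and 5.87, 7.85, 10.3 and 11.4 CPM at stage 5 after knockdown. The stage groups overlapped (log2 change -0.23 ± 0.20, edgeR adjusted p = 0.317). Untreated sibling sacs went from 12.8 and 12.1 to 94.9 and 182 CPM, and the stage-by-treatment term was -3.62 ± 0.35 (SE, edgeR adjusted p = 0.00154), which was lost when either pRNAi sac of female 2, the sac of day 16 or the untreated sac of female 2 was left out. Pt-otd (aug3.g9172; scaffold 996, 78536 to 126829, plus strand), the OTX-type homeobox gene of the head, was at 1.38, 0.389, 1.11 and 1.08 CPM and then 0.734, 2.87, 1.41 and 2.18 CPM (log2 change 0.88, edgeR adjusted p = 0.195). In untreated sibling sacs it went from 2.38 and 2.75 to 107 and 125 CPM, and in the other untreated females it rose by 4.02. Its term, -4.59 ± 0.65 (SE, edgeR adjusted p = 0.0109), fell just outside the threshold, and that against gfp pRNAi, -3.82, inside it (edgeR adjusted p = 4.88e-04). Pt-BarH1, another homeobox gene, fell from 127, 110.0, 75 and 54.8 to 31.7, 27.8, 38.9 and 36.9 CPM (log2 change -1.34 ± 0.24 SE, edgeR adjusted p = 4.30e-04), while the untreated sacs went from 90.7 and 74.1 to 226 and 217 CPM. The Hox gene Pt-lab-A was higher in female 1 than in female 2 at stage 3, with 260.0, 236, 58.6 and 52.9 CPM, and stood at 37.4, 43.1, 48.8 and 61.1 CPM at stage 5 (edgeR adjusted p = 0.0237), beside 162 and 169 CPM in the untreated stage 5 libraries.

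Some homeobox genes outside the rim list also fell. An extradenticle-like model (aug3.g13538; scaffold 1668, 271648 to 291374, minus strand), of the family that partners Hox proteins, was a programme riser, with 11.1 and 13.5 CPM at stage 3 and 39.8 and 47.6 CPM at stage 5 in the untreated Pt-hh females. After knockdown it began higher, at 27.8, 24.4, 42.8 and 30 CPM, and ended at 20.7, 13.6, 15.8 and 14.5 CPM (log2 change -0.90 ± 0.18 SE, edgeR adjusted p = 0.00114), and its stage-by-treatment term was -2.72 ± 0.31 (SE, edgeR adjusted p = 0.00498). Leaving out any single sac but that of day 20 ended that call, with terms of -2.89 to -2.57. A gooseberry model (aug3.g11337), a paired-box gene whose stage call was lost without any single sac but that of day 20, had 10, 3, 7 and 11 counts at stage 3 and 1, 0, 0 and 0 at stage 5, against 37 and 67 in the untreated stage 5 libraries (stage-by-treatment edgeR adjusted p = 0.0109). Another extradenticle-like gene, split by the study's account into the models aug3.g27747 and aug3.g27748, changed by -1.36 and -1.36 on the log2 scale (edgeR adjusted p = 1.99e-05 and 1.42e-04), against -0.44 and -0.27 in the untreated other females. Not every member of the family fell, since the extradenticle model aug3.g20631 rose from 14.1, 8.16, 7.92 and 6.57 to 152, 108, 103 and 107 CPM (log2 change 3.75 ± 0.16 SE, edgeR adjusted p = 6.13e-09).

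**Figure D2:**
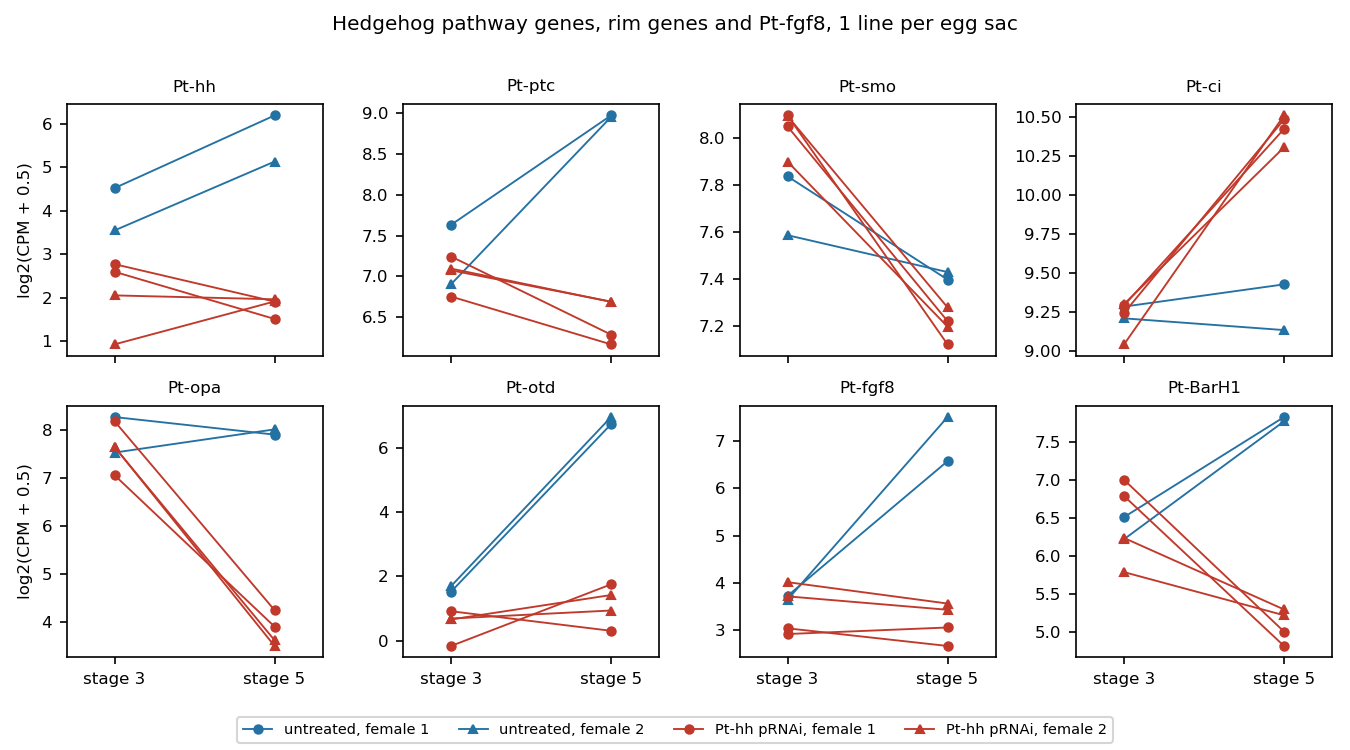
log2(CPM + 0.5) of 4 Hedgehog pathway genes (top), and 3 rim genes with Pt-fgf8 (bottom), at stages 3 and 5, with 1 line per egg sac: Pt-hh pRNAi in red, untreated sacs of the same 2 females in blue, circles for female 1 and triangles for female 2. The red lines of Pt-opa and Pt-BarH1 fall where the blue lines stay at 184 to 307 CPM for Pt-opa and rise for Pt-BarH1, those of Pt-otd and Pt-fgf8 stay low, and those of Pt-ci rise where the blue lines stay level.

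The central genes rose after Pt-hh knockdown, and RNA of whole embryos does not show where in the disc. In the study's staining, Pt-msx1 spread over nearly all of the disc after Pt-hh pRNAi. The 10 central models stand for 8 genes, since the study assigns aug3.g24611 to the gene of aug3.g27568 and aug3.g407 to that of aug3.g22741. With 1 model per gene, all 8 rose in Pt-hh pRNAi. Their median log2 change was 4.19 against 2.01 in the untreated other females (3.89 and 0.88 over the 10 models). The study chose these genes on these libraries, so their direction is not independent evidence. Only 5 of the 8 were programme risers, and all 5 rose. Only 1 of the 8 had a called stage-by-treatment term, and 6 of 8 did with gfp pRNAi as the reference, where 2.82% of all models were called higher. Pt-msx1, a homeobox gene, rose from 14.3, 15.9, 38.7 and 50.1 CPM to 484, 431, 503 and 501 CPM (log2 change 4.22 ± 0.28 SE, edgeR adjusted p = 1.62e-07). Its untreated sibling sacs reached 201 and 263 CPM from 21.8 and 30.4 CPM, and the term was 1.07 ± 0.43 (SE, edgeR adjusted p = 0.478). Pt-AP2-A, a transcription factor gene, rose from 12.7, 9.33, 6.97 and 7.65 to 171, 215, 271 and 278 CPM, against 98.1 and 99.5 CPM in the untreated stage 5 libraries (term 0.86 ± 0.43 SE, edgeR adjusted p = 0.597). The zinc finger gene Pt-bcl11 rose from 2.49, 0.777, 0.634 and 1.08 to 95.3, 91.7, 80.5 and 87.6 CPM, against 37.8 and 42.1 CPM untreated (term 2.79 ± 0.47 SE, edgeR adjusted p = 0.0228). All 4 Pt-hh pRNAi sacs ended above both untreated sacs for these 3 genes.

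The 1 called central model was aug3.g27670 (scaffold 228, 814565 to 828359, minus strand), an uncharacterized gene. It rose from 12.9, 26.7, 21.9 and 26.9 CPM to 356, 366, 431 and 357 CPM (log2 change 4.16 ± 0.19 SE, edgeR adjusted p = 9.05e-09), while its untreated sibling sacs went from 35.3 and 30 to 127 and 97.4 CPM. The stage-by-treatment term was 2.40 ± 0.31 (SE, edgeR adjusted p = 0.00825) and was lost with any single sac left out other than that of day 20 (2.20 to 2.52). In Pt-ptc pRNAi the same model changed by -2.24. Pt-RTP-B (aug3.g22741), a receptor-transporting protein-like gene, rose least, from 6.23, 9.23, 5.55 and 8.29 to 10.1, 21.1, 19.1 and 17.7 CPM (log2 change 1.23 ± 0.21 SE, edgeR adjusted p = 2.89e-04). Its other part, aug3.g407, went from 95.2, 160.4, 91.9 and 123 CPM to 137, 168, 201 and 249 CPM with overlapping stage groups, and its call (edgeR adjusted p = 0.00302) was lost without either sac of female 2.

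Genes of the later germ band were switched on as well. Of the 13 segmentation and germ band genes, 10 of the 11 models tested rose, 1 fell and 0 passed in neither direction; Pt-pax6-A and Pt-fd102C were too low to test. Pt-noto1, a homeobox gene, rose from 1.66, 1.26, 3.33 and 3.12 to 323, 253, 188 and 198 CPM (log2 change 6.71 ± 0.30 SE, edgeR adjusted p = 8.95e-09), with 159 and 103 CPM in the untreated stage 5 libraries. Pt-prd2, a paired-box gene, rose from 2.63, 2.14, 0.317 and 1.18 to 219, 273, 291 and 223 CPM, with 162 and 185 CPM in the same untreated libraries. The Notch ligand gene Pt-Delta rose from 16.3, 33.8, 19.3 and 16.6 CPM to 343, 320.4, 355 and 322 CPM (log2 change 4.05 ± 0.20 SE, edgeR adjusted p = 1.55e-08), and its untreated sibling sacs went from 42.6 and 25.6 to 314 and 276 CPM. The terms of these 3 genes were 0.65, 1.24 and 0.91, with edgeR adjusted p = 0.78, 0.585 and 0.381. Pt-Scr-A, a Hox gene, had 1, 3, 1 and 2 counts at stage 3 and 20.4, 28.9, 10.6 and 10 CPM at stage 5, both sacs of female 1 above both of female 2, and the untreated libraries ended at 6.57 and 8.54 CPM (term edgeR adjusted p = 0.032). Pt-krü-1, a zinc finger gene, ended at 12.9, 23, 11.5 and 11.1 CPM. Pt-asl-H, a proneural gene, ended at 16, 18.4, 12.7 and 12.8 CPM, and both genes had at most 0.969 CPM in any knockdown library of stage 3. Pt-hairy-D, Pt-sox2-A and Pt-ets21c rose by 2.13, 2.71 and 2.07 on the log2 scale.

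A pair of homeobox models named with the germ band genes went opposite ways. The CDX-1-like model aug3.g12643, of the caudal family, was a faller in the untreated other females (-2.03). After knockdown it had 9, 8, 2 and 3 counts at stage 3 and 44, 61, 15 and 20 at stage 5 (log2 change 3.06 ± 0.40 SE, edgeR adjusted p = 4.51e-05), against 6 and 1 at stage 3, then 3 and 1, in the untreated sibling sacs. Against gfp pRNAi, where it changed by -1.48, its term was 4.45 (edgeR adjusted p = 5.32e-04), while within the Pt-hh females the term did not pass (edgeR adjusted p = 0.228). The XHOX-3-like model aug3.g17585, of the even-skipped family, fell, from 42, 39, 6 and 9 counts to 0, 4, 0 and 0 (edgeR adjusted p = 9.57e-04). Between rim and centre, 2 of 3 intermediate genes rose and 1 fell. Pt-mirr4, an Iroquois-type homeobox gene, rose from 26.3, 25.5, 15.5 and 12.6 to 68.9, 43.7, 62.4 and 48.2 CPM, with untreated stage 5 levels of 85.1 and 69.9 CPM. The BMP antagonist gene Pt-noggin-D, which the study places in the epithelium at the cumulus, rose from 0.692, 1.17, 3.01 and 7.00 to 43.2, 44.1, 122 and 139 CPM, lower in female 1 than in female 2, beside 130.5 and 140.4 CPM in the untreated stage 5 libraries. Pt-odd-skipped related-B, a zinc finger gene, rose by 1.93 on the log2 scale. Pt-rhomboid, whose fly relative activates EGF ligands, fell from 89.6, 92.3, 56.9 and 54.9 to 20.7, 14.2, 24 and 18.9 CPM (log2 change -1.85 ± 0.22 SE, edgeR adjusted p = 2.00e-05) and was a faller of the untreated programme too (-1.11). Neither the 3 intermediate genes nor Pt-noggin-D had a called stage-by-treatment term within the Pt-hh females, or with gfp pRNAi as the reference.

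**Figure D3:**
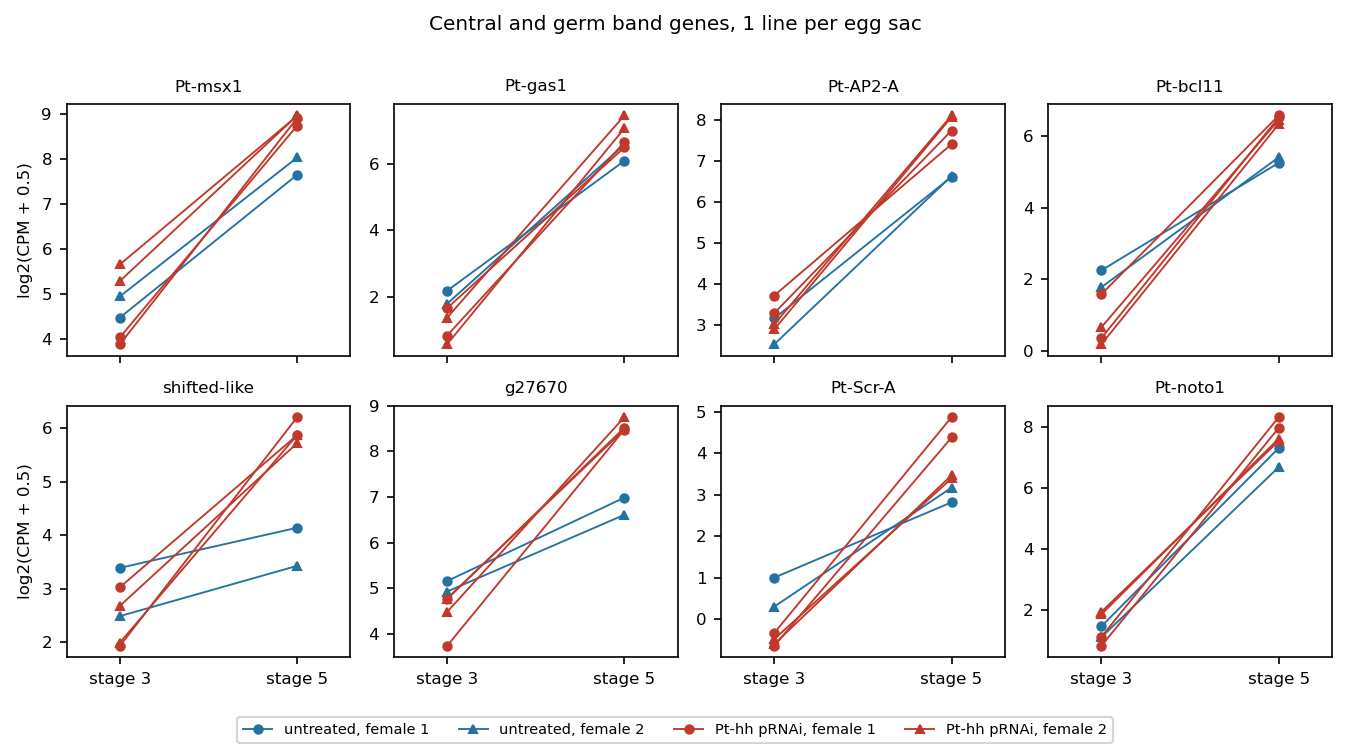
log2(CPM + 0.5) of 6 central genes, Pt-Scr-A and Pt-noto1 at stages 3 and 5, with 1 line per egg sac: Pt-hh pRNAi in red, untreated sacs of the same 2 females in blue, circles for female 1 and triangles for female 2. Every line rises, and for Pt-msx1, Pt-AP2-A, Pt-bcl11, the shifted-like model and aug3.g27670 all 4 red lines end above both blue lines.

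Notch and Wnt genes mostly followed the untreated programme. Over all models tested, the shares that rose and fell were 28.9% and 30.1%, and 84.6% of all programme risers rose. In the Wnt list, 10 of the 22 models tested rose, 5 fell and 7 passed in neither direction (median log2 change 1.03, 0.67 in the untreated other females), and 7 of its 10 programme risers rose. A Wnt-8b-like ligand gene (aug3.g5617) rose from 2.08, 1.75, 1.9 and 0.754 to 133, 175, 189 and 158 CPM, and pangolin (aug3.g18357), the Tcf-type factor of the pathway, from 0.554, 0.486, 0.317 and 0.431 to 19.2, 18, 14.3 and 12.3 CPM. The secreted frizzled-related protein model aug3.g4876, of a family that binds Wnt ligands outside the cell, went from 6.09, 7.77, 54.8 and 46.1 to 48.4, 34.5, 30.3 and 39.8 CPM (edgeR adjusted p = 0.144), against a rise of 4.46 on the log2 scale in the untreated other females. Untreated sibling sacs went from 4.76 and 19 to 58.5 and 106 CPM, its term within the Pt-hh females was -2.06 ± 0.92 (SE, edgeR adjusted p = 0.543), and that against gfp pRNAi passed (edgeR adjusted p = 0.00251). By sac it gained 2.89 and 2.08 in female 1 on the log2 scale and changed by -0.85 and -0.21 in female 2, beside 3.49 and 2.45 in their untreated sacs. A second such model, aug3.g4877, changed by 3.04, 2.74, -0.29 and 0.21 in the 4 sacs. Its term against gfp pRNAi did not pass (edgeR adjusted p = 0.0237). In the Notch list, 15 of the 26 models tested rose, 5 fell and 6 passed in neither direction (median log2 change 1.65, 1.03 in the untreated other females); all 11 programme risers among them rose. The receptor gene (aug3.g21218) rose from 80.8, 106, 51.2 and 56.3 to 1017, 921, 911 and 847 CPM and the HES-1-A target-type gene aug3.g17723 from 3, 2, 0 and 1 counts to 105, 97.5, 107 and 91.3 CPM.

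BMP, FGF and EGF genes had members that rose and members that fell, at shares near or below those of all models. In the BMP and TGF-beta list, 8 of the 34 models tested rose, 8 fell and 18 passed in neither direction (median log2 change -0.08, -0.15 in the untreated other females), and 5 of its 10 programme risers rose. A BMP4-like ligand gene (aug3.g16926) rose from 11.6, 12, 14.6 and 11 to 133, 125, 117 and 113 CPM, whereas a BMP10-like model (aug3.g16925) fell from 164, 120.2, 91.9 and 101 to 1.32, 2.49, 0.424 and 0.967 CPM. The BMP2-A-like model aug3.g15032 did not pass, with 2.77, 3.11, 1.43 and 1.4 CPM at stage 3 and 2.5, 3.06, 0.849 and 1.57 CPM at stage 5 (edgeR adjusted p = 0.805), where the other untreated females rose by 3.51. Its untreated sibling sacs had only 2.53 and 3.52 CPM at stage 5, and the term did not pass (edgeR adjusted p = 0.509). In the FGF and EGF list, 5 of the 20 models tested rose, 6 fell and 9 passed in neither direction (median log2 change -0.45, -0.01 in the untreated other females). The EGF receptor gene (aug3.g13345) rose from 98.4, 112, 112 and 109 to 255, 315, 266 and 351 CPM, and an FGF receptor model (aug3.g26271) fell from 176, 74.9, 53.1 and 47.5 to 3.67, 5.94, 5.23 and 2.3 CPM. The EGF ligand gene spitz (aug3.g19827), a programme riser, stood at 10.7, 11.3, 20.9 and 15.5 CPM, then 12.6, 11.3, 13.3 and 21.6 CPM (edgeR adjusted p = 0.804; term edgeR adjusted p = 0.491). These examples of genes that did not pass, here and in the Wnt list, were chosen after their values were seen.

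Homeobox genes changed in both directions after knockdown, at shares near those of all models tested, of which 28.9% rose and 30.1% fell. Those 2 shares are also the background for the other lists of this paragraph. In the homeobox list, 23 of the 68 models tested rose, 22 fell and 23 passed in neither direction (median log2 change -0.02, -0.05 in the untreated other females). Among them, 14 of 19 programme risers rose and 12 of 17 fallers fell, beside 84.6% and 85.3% of all programme risers and fallers. The extradenticle-like aug3.g13538 was the 1 homeobox model with a called term within the Pt-hh females. With gfp pRNAi as the reference, which compares different females, 10 of 96 homeobox models tested were called higher and 8 lower. Of all models tested that way, 2.82% were called higher and 2.32% lower. Meis2 (aug3.g13867), a partner of Hox and Pbx proteins, rose from 1.11, 2.53, 0.792 and 0.538 to 84.9, 65.1, 27.2 and 34.6 CPM, whereas the Meis1 model aug3.g3111, a programme riser (1.04), stood at 97.3, 83.4, 90.6 and 77.6 CPM, then 79.1, 98.8, 91.8 and 59.5 CPM (edgeR adjusted p = 0.691). For forkhead, Sox, T-box and GATA genes, 9 of the 27 models tested rose, 6 fell and 12 passed in neither direction (median log2 change 0.22, -0.11 in the untreated other females). A SOX model (aug3.g8208) went from 0.554, 0.874, 0.634 and 0.431 to 21.9, 24.1, 29.8 and 49.8 CPM and a forkhead box N4-like model (aug3.g19784) fell from 259, 212, 235 and 236 to 15.6, 21.5, 18.1 and 24.7 CPM. In the basic helix-loop-helix list, 13 of the 25 models tested rose, 4 fell and 8 passed in neither direction (median log2 change 0.74, 0.78 in the untreated other females), and all 8 risers rose and all 3 fallers fell. The inhibitor of DNA binding ID-2 model (aug3.g21189) rose from 6.64, 6.32, 7.76 and 4.63 to 166, 151, 187 and 177 CPM. Of the zinc finger proteins, 35 of the 180 models tested rose, 49 fell and 96 passed in neither direction (median log2 change -0.15, -0.14 in the untreated other females). Pt-opa was the only one with a called term within the Pt-hh females, and with gfp pRNAi as the reference 3 of 188 were higher and 3 lower. For adhesion and matrix genes, 28 of the 70 models tested rose, 18 fell and 24 passed in neither direction (median log2 change 0.34, 0.27 in the untreated other females), led by papilin (aug3.g4424), a matrix protein, which fell from 1572, 1372, 1905 and 1713 to 8.22, 9.58, 19.7 and 16.3 CPM.

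Genes of growth and of the cell cycle went through their stage change after knockdown as well. The counts below stand beside 28.9% of all models tested that rose and 30.1% that fell. The deadenylation and mRNA decay list was near or below these shares. Of the cytosolic ribosomal proteins, 74 of the 75 models tested rose, 1 fell and 0 passed in neither direction, by a median of 3.31 on the log2 scale against 3.43 in the untreated other females. The gene for ribosomal protein S6 (aug3.g1869) went from 63.3, 115, 86 and 91.6 CPM to 2256, 2954, 2208 and 1999.8 CPM (log2 change 4.78 ± 0.16 SE, edgeR adjusted p = 1.02e-09). In the mitochondrial respiratory chain, 37 of the 61 models tested rose, 3 fell and 21 passed in neither direction (median log2 change 0.68, 0.69 in the untreated other females); cytochrome c oxidase subunit 5B (aug3.g3085) rose by 1.98. For heat shock proteins and chaperones, 40 of the 82 models tested rose, 19 fell and 23 passed in neither direction (median log2 change 0.58, 0.39 in the untreated other females). Heat shock protein 83 (aug3.g876), the fly Hsp90, rose from 62.4, 65, 45.2 and 64.3 to 6605, 8375, 3734 and 3826 CPM, higher in female 1 than in female 2. Cell cycle and replication genes fell more often than they rose: 30 of the 125 models tested rose, 52 fell and 43 passed in neither direction (median log2 change -0.45, -0.32 in the untreated other females). Cyclin B (aug3.g8469), which drives entry into mitosis, fell from 1469, 1312, 1650.2 and 1624 to 251, 219, 267 and 221 CPM. Among histones, 6 of the 17 models tested rose, 7 fell and 4 passed in neither direction (median log2 change -0.16, -0.24 in the untreated other females), and the histone H3.1 model aug3.g12364 fell from 314, 224, 280.0 and 293 to 1.61, 2.49, 0.99 and 1.21 CPM. In the small RNA and germline list, 4 of the 24 models tested rose, 16 fell and 4 passed in neither direction (median log2 change -1.13, -0.80 in the untreated other females), with maelstrom (aug3.g6477), a piRNA pathway gene, down by 2.14 on the log2 scale. Of the deadenylation and mRNA decay genes, 20 of the 68 models tested rose, 16 fell and 32 passed in neither direction (median log2 change 0.03, -0.11 in the untreated other females). Of all the models in this group of lists 1, the small heat shock protein aug3.g1733, had a called stage-by-treatment term within the Pt-hh females.

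**Figure D4:**
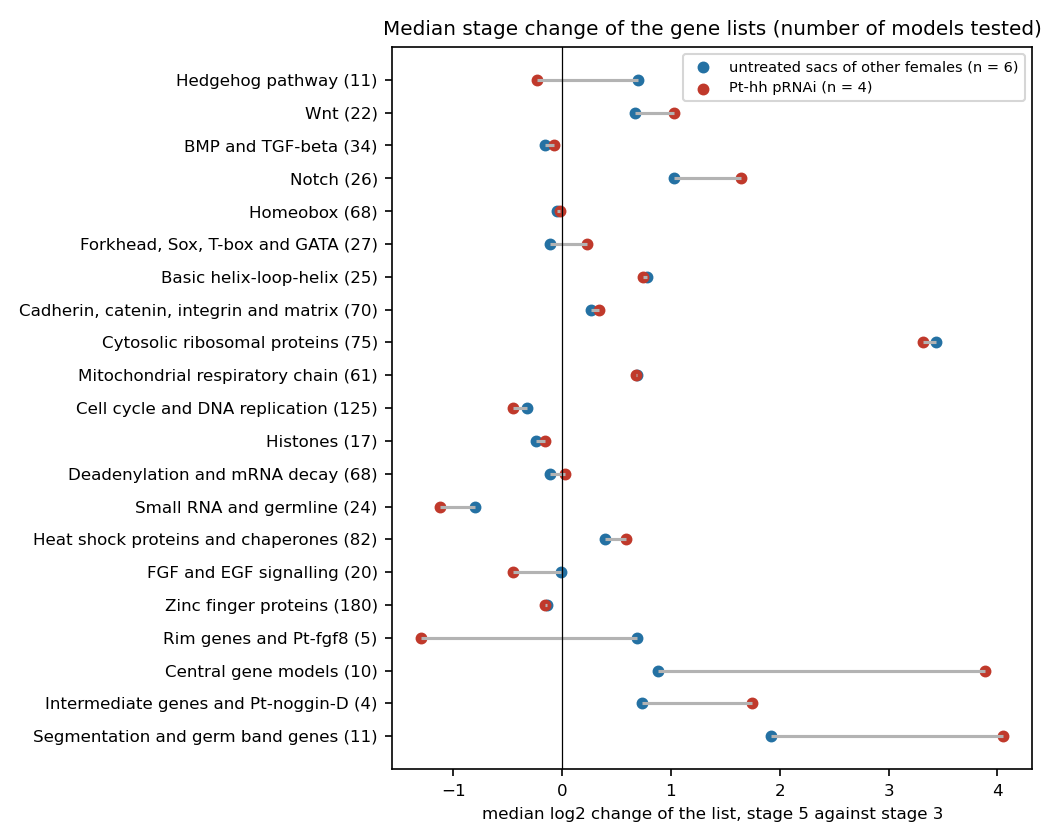
Median log2 change from stage 3 to stage 5 of 21 gene lists (x axis) in Pt-hh pRNAi (red, 4 sacs) and in untreated sacs of other females (blue, 6 sacs), with the number of models tested in brackets. The ribosomal protein list sits near 3.3 in Pt-hh pRNAi and 3.4 untreated, while the rim genes with Pt-fgf8 are at -1.29 in Pt-hh pRNAi and 0.69 untreated and the 10 central models at 3.89 and 0.88.

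Markers of cell types that the embryos could hold were summed per library. The 10 germ cell models summed to 3820 to 4420 CPM at stage 3 and 4330 to 4710 CPM at stage 5 in Pt-hh pRNAi, beside 4230 to 5410 and 3390 to 4170 CPM in the untreated Pt-hh females, and none was at 0; 8 of the 10 fell and 1 rose, with a median of -1.13 against -0.99 in the untreated other females. The 13 mesoderm and endoderm models, 10 of them above the low-count filter, summed to 197 to 245 CPM at stage 3 and 222 to 296 CPM at stage 5 in the knockdown. The untreated libraries of the same females summed to 260 to 267 CPM at stage 3 and 354 to 386 CPM at stage 5. These groups did not overlap at either stage. Untreated sacs of the other females had 208 to 360 CPM at stage 3, which overlapped the knockdown, and 299 to 484 CPM at stage 5. At stage 5, 3 of the models were at 0 in all libraries of the knockdown, and 3 in both untreated ones of the Pt-hh females. Among them, the snail model aug3.g416, the coding part of a mesoderm gene, rose to 6.02, 3.83, 6.08 and 4.71 CPM, against 35.2 and 21.8 CPM untreated (term -0.90 ± 0.57 SE, edgeR adjusted p = 0.698). The model aug3.g417, by the study the 3' untranslated part of the same gene, rose to 7.63, 4.79, 5.38 and 6.41 CPM, against 39.8 and 36.9 CPM untreated. With snail counted once the stage 5 sums were 217 to 290 CPM after knockdown and 317 to 346 CPM untreated. The GATA-4 model aug3.g8337 rose to 24.5, 16.9, 20.9 and 24.5 CPM against 37.8 and 37.8 CPM untreated. The 4 cumulus mesenchyme models summed to 42.8 to 59 CPM at stage 5 after knockdown and 34.6 to 42.3 CPM in the untreated Pt-hh females. The knockdown range overlapped the 34.9 to 58 CPM of the untreated other females and the 38 to 66.6 CPM of gfp pRNAi at that stage. At stage 3 the sums were 35.5 to 52.6 CPM after knockdown and 37 to 59.3 CPM in the untreated Pt-hh females. Hemocyte and maternal markers stayed low, at 13.1 to 15.6 CPM at stage 3 and 42 to 71.4 CPM at stage 5, most of it 1 vitellogenin-like model (aug3.g18714) that rose in the untreated sacs too (6.40 and 5.80), and the hemocyanin models were at or under 1.66 CPM in every Pt-hh pRNAi library. The part of these markers in the other results was not tested.

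Within the Pt-hh females, 18 models changed between the stages by a different amount in Pt-hh pRNAi than in untreated embryos: 13 by more in the positive direction (0.0922% of 14105 models tested) and 5 by less (0.0354%). The 5 lower ones were Pt-opa and its neighbour, Pt-fgf8, Pt-ptc and the extradenticle-like aug3.g13538. These counts depended on the design: with the sacs of each female summed, the fit at the level of the animals, none of the 18 was called, Pt-opa included (491 and 312 models higher and lower at an unadjusted p under 0.05 in edgeR). Without the block 1 higher and 1 lower model was called, and with the replicate number (female) as block in place of the sac 53 and 19 were. The counts were 422 and 347 with gfp pRNAi as the reference, which compares different females, and 102 (0.679%) and 23 (0.153%) with all untreated sacs as the reference. Leaving out the 4 abundant models gave 21 and 9, the 18 among them. All 18 were called again with the female as block, and 16 of 18 with gfp pRNAi as the reference. With each of the 6 sacs left out in turn 2 to 17 of the 18 were called, and the direction held for all 18 each time. In the gfp females the corresponding test of injected against untreated sacs called 1 higher and 1 lower of 14790 models (0.00676% each). Among the 13299 models tested in all 3 fits these calls were 0.0978% higher and 0.0376% lower. Of the 3219 programme risers only 3 (0.0932%) fell short by this test (Pt-ptc, Pt-fgf8 and aug3.g13538) and 1 exceeded its course, the small heat shock protein of the next paragraph. Of the 3382 fallers 4 (0.118%) fell short and none exceeded (71 at an unadjusted p under 0.05 in edgeR).

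None of the 13 higher models other than the central aug3.g27670 was in the lists of pattern genes. A lethal(2)essential for life-like model (aug3.g1733), of the small heat shock proteins, rose from 5.12, 4.86, 3.8 and 3.66 CPM to 379, 458, 338 and 765 CPM, while its untreated sibling sacs went from 4.38 and 3.84 to 65.1 and 35.1 CPM (term 3.20 ± 0.42 SE, edgeR adjusted p = 0.00825). The DDIT4-like model aug3.g3010, whose vertebrate relative restrains TOR signalling under stress, rose from 30, 31.4, 46 and 53.2 to 229, 253, 293 and 449 CPM, while the untreated sacs had 77.3 and 65.4, then 112 and 92.3 CPM (term 2.45 ± 0.21 SE, edgeR adjusted p = 6.24e-04). It was called with any single sac left out except the untreated sac of female 2. The translation initiation factor eIF2 subunit 2 model aug3.g3016 had 1, 1, 2 and 4 counts at stage 3 and 80, 86, 172 and 309 at stage 5, and the untreated sacs had 8 and 5, then 6 and 0 (edgeR adjusted p = 0.00825). An ABC transporter G family model (aug3.g25573) rose from 6.92, 5.64, 6.34 and 6.57 to 22.3, 21.3, 19.9 and 17.9 CPM where the untreated sacs went from 13.3 and 18.3 to 3.03 and 3.66 CPM, a term of 3.94 ± 0.33 (SE, edgeR adjusted p = 6.24e-04) that also held without any single sac but the untreated one of female 2. The VPS13D model aug3.g7340, of a family that moves lipids between membranes, rose from 36.8, 61.9, 46.9 and 43.7 to 228, 257, 219 and 256 CPM, but the untreated sacs were already at 284 and 105 CPM at stage 3 and 204 and 134 CPM at stage 5.

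Further members fell less than they do in untreated embryos. The sialin-like transporter model aug3.g4604, of the lysosomal sialic acid carriers, fell from 110.3, 98.4, 82.2 and 73 to 28.2, 31, 17.4 and 30.2 CPM, where the untreated sacs reached 5.23 and 1.36 CPM (term 3.37 ± 0.38 SE, edgeR adjusted p = 0.0046). The CD63-like tetraspanin aug3.g4006 fell from 458, 523, 641 and 554 to 203, 243, 274 and 270.4 CPM, where the untreated sacs reached 113 and 84 CPM (term 1.63 ± 0.18 SE, edgeR adjusted p = 0.0046). The unannotated aug3.g11541 fell to 6.9, 9.002, 16.6 and 13.1 CPM beside 2.02 and 5.96 CPM untreated, but its term of 2.23 became -0.43 with gfp pRNAi as the reference (edgeR adjusted p = 0.445). A serine protease 27 model (aug3.g12644), HEXIM2-like (aug3.g10858), a regulator of transcription elongation in vertebrates, and the mitochondrial presequence protease (aug3.g1446) had terms of 1.92, 1.66 and 1.66, and their Pt-hh pRNAi stage changes were 2.16, 0.84 and 0.64. The last of the 18, the unannotated aug3.g15746, went from 5.54, 6.9, 5.55 and 2.69 to 11.7, 10.7, 6.37 and 8.83 CPM, and its term of 3.67 rested on untreated stage 3 levels of 36.3 and 11.5 CPM. With gfp pRNAi as the reference it was not called (edgeR adjusted p = 0.0825).

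**Figure D5:**
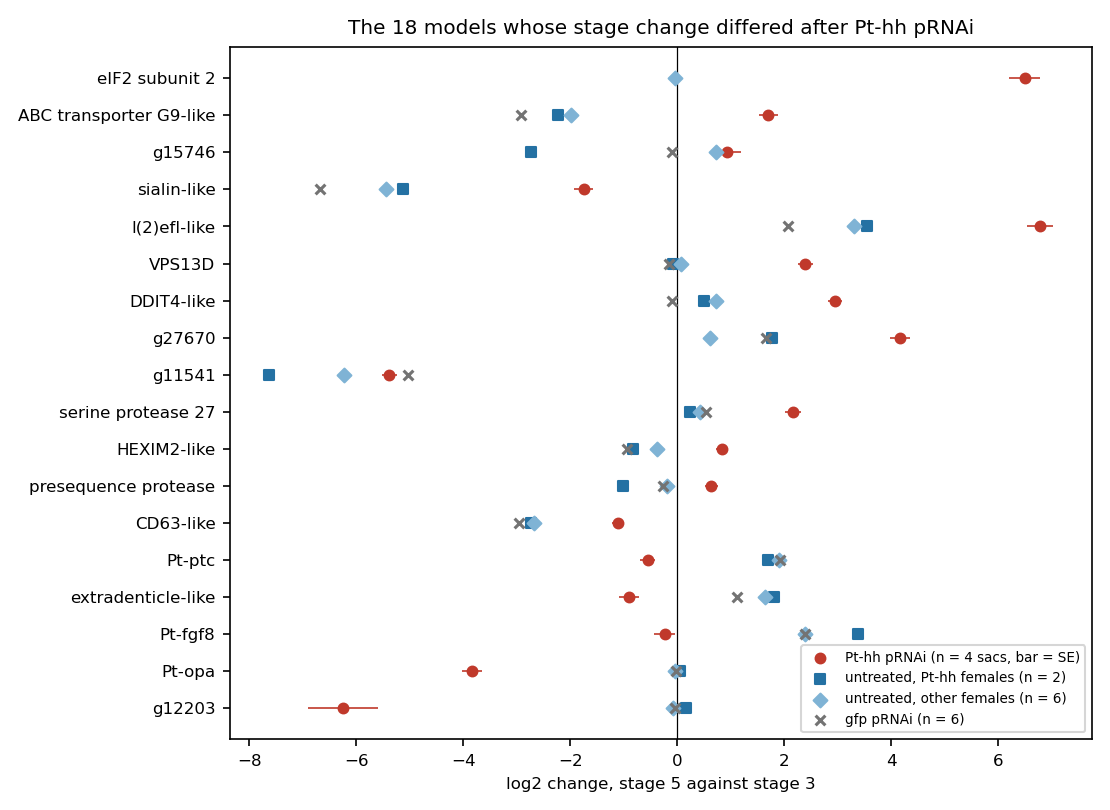
Log2 change from stage 3 to stage 5 (x axis) of the 18 models with a called stage-by-treatment term: Pt-hh pRNAi (red circles, bars are SE, 4 sacs), untreated sacs of the Pt-hh females (dark squares, 2), untreated sacs of other females (light diamonds, 6) and gfp pRNAi (crosses, 6). For eIF2 subunit 2 only Pt-hh pRNAi and the untreated other females gave a fit; for Pt-opa the 3 reference points lie at -0.03 to 0.05 and the Pt-hh pRNAi point at -3.83.

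In all, 18 programme genes were called in the direction opposite to the untreated programme, 5 risers that fell and 13 fallers that rose. The risers included Pt-ptc, aug3.g13538, the gooseberry model and an adhesion G protein-coupled receptor of the latrophilin type (aug3.g9493), which fell from 34.7, 53.4, 30.3 and 35.2 to 18.6, 20.9, 19.5 and 23.6 CPM where the untreated sacs went from 74.2 and 48.3 to 131 and 142 CPM (term -2.01 ± 0.31 SE, edgeR adjusted p = 0.0161). Among the fallers, a glucose transporter-type model (aug3.g25893) rose from 11.4, 7.29, 8.72 and 9.37 to 34.9, 45.6, 36.4 and 37.1 CPM (term 2.02 ± 0.33 SE, edgeR adjusted p = 0.0192). A caspase model (aug3.g2550), of the proteases of cell death, rose from 5.54, 4.96, 3.96 and 3.45 to 10.6, 8.43, 8.06 and 12 CPM, a stage call lost without the sac of day 22. The untreated Pt-hh females went from 5.51 and 4.39 to 7.92 and 5.96 CPM for the caspase model, and the term did not pass (edgeR adjusted p = 0.683).

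In Pt-ptc pRNAi, which lowers the receptor that holds the pathway back, the stage change was higher than in Pt-hh pRNAi for all 4 rim genes and lower for all 8 central genes. The study picked genes called in both knockdowns at stage 5 in these libraries and classed them by direction. For genes chosen that way the split was largely set in advance and is not independent evidence. Of the rim genes, the study names Pt-otd, Pt-lab-A and Pt-opa as targets known from earlier work. From stage 3 to stage 5, Pt-opa changed by -3.83 in Pt-hh pRNAi, -0.02 in gfp pRNAi and 1.14 in Pt-ptc pRNAi. Pt-fgf8 changed by -0.23, 2.40 and 4.01 in the same order, Pt-otd by 0.88, 4.66 and 6.09, and Pt-BarH1 by -1.34, 0.20 and 1.76. Among the central genes, Pt-msx1 changed by 4.22, 2.63 and -2.25 and Pt-bcl11 by 6.24, 4.04 and -2.79. For Pt-ci the changes were 1.25, 0.27 and -0.997. Pt-Delta changed by 4.05, 2.93 and 3.67. These are fits of separate sets of females, and the differences between Pt-hh and Pt-ptc pRNAi were not tested.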

How the data were processed

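The values were counts of reads per gene model, deposited by the authors for 68 of the 75 samples with no normalization; the other samples were not analysed here. By the study's methods and labels, mRNA libraries from a directional kit were sequenced, trimmed reads were mapped with BLAT to the Ptep_1.0 assembly, and uniquely placed reads were counted on the aug3 gene models with HTSeq 0.5.4p5 in union mode with strand reversed, so reads from overlapping genes on opposite strands were counted apart. Reads that match several near-identical genes were dropped upstream, which can lower paralog counts. The labels name 2 mRNA extraction kits but not which library used which. The authors also deposited RPKM values and 6 tables of their own comparisons (fold changes and false discovery rates), which were not used. All 68 value columns matched a sample.

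Counts were tested with edgeR 4.0.16 in R 4.3.3 (quasi-likelihood F test, TMM scaling), keeping gene models of at least 1 CPM in at least 1 of the libraries fitted, with the egg sac as block, Benjamini-Hochberg adjustment over all models tested and a threshold of 0.01. The CPM values printed were scaled over 48 libraries together. Within the Pt-hh pRNAi libraries the deviations of both stages of a sac correlated by 0.174 to 0.282, the other sac of the same female by 0.217 to 0.291, and sacs of different females by -0.291 to -0.216. Both stages of a sac are siblings, which gives the pairing, but the shared deviation is by female, so the 4 sacs are not 4 independent pairs. The stage-by-treatment term was the coefficient for the stage change after Pt-hh pRNAi minus that in the untreated sacs of the same females. Since the Pt-hh pRNAi libraries enter both that fit and their own stage fit, the 2 are not independent. Total counts of 6188457 to 9738213 per library mean that 3 counts correspond to about 0.376 CPM at stage 3 and 0.451 CPM at stage 5 on average, the floor used for lower bounds, which covers counting error only. The edgeR fits were tested on simulated data with an independent effect of each sac and none of female. That test cannot show how the fits handle the deviation shared by female.

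Genes are named by a rule: every model the study pairs with a name, 2 to 4 members of each list by smallest adjusted p, the 8 annotated models with the largest rise and fall at 20 CPM or more, and the models with the smallest adjusted p that fell short, exceeded or were gained by the stage-by-treatment term. Other named genes were chosen after their values were seen, namely those programme genes described as not called, the genes opposite to the programme, the unannotated models with a called term and the pathway and marker genes outside these. The members and lists were chosen with earlier results of these data known. Lists were made from words in the deposited annotation and from the study's names. Alternatives were a likelihood ratio test, DESeq2 1.42.0, other scaling, filters, thresholds, blocks, references and programme definitions, sacs and females left out, and the 4 abundant models left out, the last chosen after seeing the data, as were the counts with 1 model per gene. No sequences are shown, since none of the Ptep_1.0 build was used here.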

Additional observations from a re-analysis of the deposited data

Results flagged for a closer look

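Among the 4 Pt-hh pRNAi sacs, the stage change on log2(CPM + 0.5) of 7 of 86 named genes had 1 sac far from the other 3, where chance gives about 1 in 20. For Pt-krü-1 the sac of female 1, day 20, stood at 5.297, and the other sacs were at 4.022 to 4.183. For Pt-Delta the same sac was at 3.225 and the others at 4.166 to 4.351, and for the ABHD11-like aug3.g3607 it was at -7.424 beside -9.230 to -9.017. The day 16 sac of female 1 stood apart for the proneural gene Pt-asl-H, at 3.49 with the others at 4.329 to 4.454, and for the XHOX-3-like aug3.g17585, at -3.658 with the others at -1.760 to -1.537. Counts of aug3.g17585 were few at stage 3 in female 2 and at or near the floor at stage 5. The offset added to CPM therefore limits how large its fall could be there. In female 2, the day 22 sac had 2.835 for Pt-hairy-D, where the others had 1.555 to 1.669, and the day 18 sac had 1.93 for Pt-sox2-A, where the others had 2.117 to 2.151.

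The stage change differed between Pt-hh pRNAi and untreated sacs of the same females for 18 models by the edgeR interaction term. Its log2 values below 0 were -6.391 for aug3.g12203, -3.883 for its neighbour Pt-opa, -3.616 for Pt-fgf8, -2.721 for the extradenticle-like aug3.g13538 and -2.242 for Pt-ptc. The 3 largest above 0 were 7.514 for the eIF2 subunit 2 model aug3.g3016, 3.938 for the ABC transporter aug3.g25573 and 3.675 for the unannotated aug3.g15746. The sialin-like aug3.g4604 had 3.373, the small heat shock protein aug3.g1733 had 3.2, VPS13D (aug3.g7340) had 2.47, the DDIT4-like aug3.g3010 had 2.447 and the central gene aug3.g27670 had 2.397. The smallest were 2.23 for aug3.g11541, 1.92 for the serine protease aug3.g12644, 1.659 for the HEXIM2-like aug3.g10858, 1.655 for the presequence protease aug3.g1446 and 1.625 for the CD63-like aug3.g4006. The values of aug3.g12203 and aug3.g3016 rest on groups with counts at or near 0 and depend on the prior count.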

How the results depend on the processing

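The share of risers and fallers that went on stayed between 65.4 and 96.6% over the alternatives run. The numbers of stage-by-treatment calls, 13 higher and 5 lower, and of programme genes that fell short, 3 risers and 4 fallers, did not stay within 1.5 times. They are given in that order. The likelihood ratio test gave 122, 40, 14 and 40, DESeq2 97, 26, 10 and 36, no filter on low counts 116, 40, 17 and 38, a threshold of 0.05 77, 24, 11 and 28, gfp pRNAi as the reference 422, 347, 111 and 128, all untreated sacs 102, 23, 14 and 33, and leaving out the 4 abundant models 21, 9, 5 and 8. With no replicate block the counts were 1, 1, 0 and 1, and with the replicate number as the block in place of the sac pairing 53, 19, 9 and 21. The stricter filterByExpr gave 5 higher, the first sacs alone gave 7 higher and 2 fallers that fell short, and a log2 change of at least 2 left 1 riser. With the second sacs alone, and with the sacs of a female summed, all 4 counts were 0 in edgeR, with 489 and 298, and 491 and 312, models higher and lower at an unadjusted p under 0.05; the second sacs alone also called 2583 higher and 2746 lower in the Pt-hh pRNAi stage fit. With a sac or a female left out the higher calls ranged from 1 to 318, the lower from 1 to 263, the risers that fell short from 0 to 123 and the fallers from 0 to 118. The highest came without female 1 (318, 263, 123 and 118) and the lowest without the untreated sac of female 2 (1, 1, 0 and 0). Without female 2 they were 76, 34, 14 and 27. Fits without a female rest on 3 sacs, where the 1 untreated sac is assumed to vary like the others. The cause of these shifts was not tested. Of the 18 calls, 18 were made again by DESeq2, the likelihood ratio test and the 4 models left out, 16 with gfp pRNAi as the reference, 13 with all untreated sacs, 9 with filterByExpr and 2 with no replicate block. With gfp pRNAi as the reference the term changed sign for 48 of 200 named models, 6 of them called with either reference. The 48 include aug3.g11541 (-0.43), the tudor domain model aug3.g2858 (-0.71), and aug3.g22667 (-1.01) and aug3.g4422 (-1.05), which overlap in sequence.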

Other observations

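The unannotated model aug3.g12203 starts 6 bases past the end of Pt-opa on scaffold 1447, on the other strand, and both fell from stage 3 to stage 5 after Pt-hh knockdown. The serine protease model aug3.g12644, with a called term, and the CDX-1-like aug3.g12643 lie on the same scaffold, 1522.

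Some pattern genes differed between the 2 females after knockdown, with 2 sacs a female and no test. At stage 3, Pt-lab-A was at 260.0 and 236 CPM in the sacs of female 1 and at 58.6 and 52.9 CPM in those of female 2, and the frizzled-related aug3.g4876 was at 6.09 and 7.77 CPM against 54.8 and 46.1 CPM. At stage 5, Pt-noggin-D was at 43.2 and 44.1 CPM in female 1 and at 122 and 139 CPM in female 2, and Pt-Scr-A at 20.4 and 28.9 CPM against 10.6 and 10 CPM.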
